A study of Mus musculus with 12 samples.

Results

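The collagen genes were taken as every gene whose symbol is Col, a family number, a and a chain number. This gave 44 genes, all listed in both deposited tables, of 17416 genes that the tables share. They were divided into 9 fibrillar collagens (families 1, 2, 3, 5 and 11), 8 basement membrane collagens (families 4, 15 and 18) and 27 other collagens. Each gene encodes 1 chain, and collagen proteins are triple helices of identical or different chains.

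Fibrillar collagens form the cross-striated fibres of connective tissue, and in the brain they are largely confined to the meninges and the walls of larger vessels. Type IV collagen forms a sheet-like network that, together with laminins and nidogens, builds the basement membrane around vessels and under the pial surface. Other collagens sit on fibril surfaces, form beaded or hexagonal networks, or span the plasma membrane, and several of these are made by neurons or glia. Chains are hydroxylated and folded in the endoplasmic reticulum, trimmed outside the cell and cross-linked by lysyl oxidases.

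The data are FPKM values (fragment counts scaled to transcript length and library size) of 12 mRNA libraries. The labels call the cells primary neurons of the C57BL/6 mouse strain and give day 10 as the time of collection. Groups were H-Ras(G12V) over-expression by an adeno-associated virus, used as an oncogene-induced senescence model; its control, with genotype WT and treatment mCherry; etoposide, a topoisomerase II poison, used as a stress-induced senescence model; and its control with the solvent DMSO, both with genotype WT. Each group has 3 libraries. The labels used here give neither the promoter or species of the transgene, the dose of etoposide, nor the age of the mice, and they do not say whether libraries came from separate cultures. A p-value here thus reflects library-to-library spread alone, and that spread may be technical. For the 6 etoposide and DMSO libraries the treatment tag states the opposite of the title. The titles were followed, and every direction for etoposide holds for the libraries titled so.

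Some libraries stood apart from others of their group. Etoposide library 3 had rank correlations across tested genes of 0.811 and 0.881 with etoposide libraries 1 and 2, against 0.977, 0.979 and 0.931 with DMSO libraries 1, 2 and 3. In the mCherry group, library 3 had 0.929 and 0.925 with libraries 1 and 2, which reached 0.997 with each other. Markers of neurons summed to between 1245 and 1434 FPKM in H-Ras(G12V) libraries, 2113 and 2213 FPKM in mCherry libraries, 697 and 2535 FPKM in etoposide libraries, and 2015 and 2248 FPKM in DMSO libraries. Astrocyte and oligodendrocyte lineage markers were also high in many libraries. Astrocyte markers summed to between 2540 and 3693 FPKM in H-Ras(G12V) libraries, above the neuronal sums. They summed to 1181, 1186 and 3096 FPKM in mCherry libraries 1, 2 and 3, where oligodendrocyte lineage markers summed to 267, 204 and 703 FPKM. Astrocyte sums were between 607 and 939 FPKM in etoposide libraries and between 1016 and 1585 FPKM in DMSO libraries. In bulk libraries such as these, fewer cells of a type and less RNA per cell cannot be told apart.

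With H-Ras(G12V), the type I and type III chains Col1a1, Col1a2 and Col3a1 had the 3 largest falls among the tested collagens on the log2(FPKM + 1) scale, and the basement membrane chains Col4a1 and Col4a2 fell as well. Their mean levels were 15.2, 11.2, 21.6, 2.98 and 2.93 times higher in mCherry libraries for Col1a1, Col1a2, Col3a1, Col4a1 and Col4a2. By this ratio the low gene Col8a2 fell further, at 25.2, and with a pseudocount of 0.1 FPKM its log2 difference of -3.58 lay beyond that of Col1a2 (-3.45). Col16a1, Col28a1, Col9a2 and Col11a1 rose. Of 44 collagens, 31 averaged 1 FPKM or more across the 6 libraries and were tested, so that the 13 lowest are in none of these counts. In limma with Benjamini-Hochberg adjustment 4 rose and 11 fell, 15 of 31 in all, where 17% of all 12724 tested genes passed (10.3% higher and 6.67% lower). By class, 1 of 9 tested fibrillar collagens rose and 3 fell, 0 of 5 tested basement membrane collagens rose and 2 fell, and 3 of 17 tested other collagens rose and 6 fell. The groups did not overlap for 16 of the 31 (4 higher and 12 lower), as for 40.3% of all tested genes (23.7% higher and 16.6% lower). The median log2 difference was -0.41 over the tested collagens and 0.05 over all tested genes. The calls depend on single libraries. Without mCherry library 3, 8 collagens rose and 15 fell (44.9% of all tested genes passed), 14 of them also called with all libraries in the same direction. The values given below for that setting rest on mCherry libraries 1 and 2, whose rank correlation was 0.997. Without H-Ras(G12V) library 1 or 3, or mCherry library 1 or 2, 2 rose and 7 fell in each case, where 3.9% to 5.44% of all tested genes passed.

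**Figure D1:**
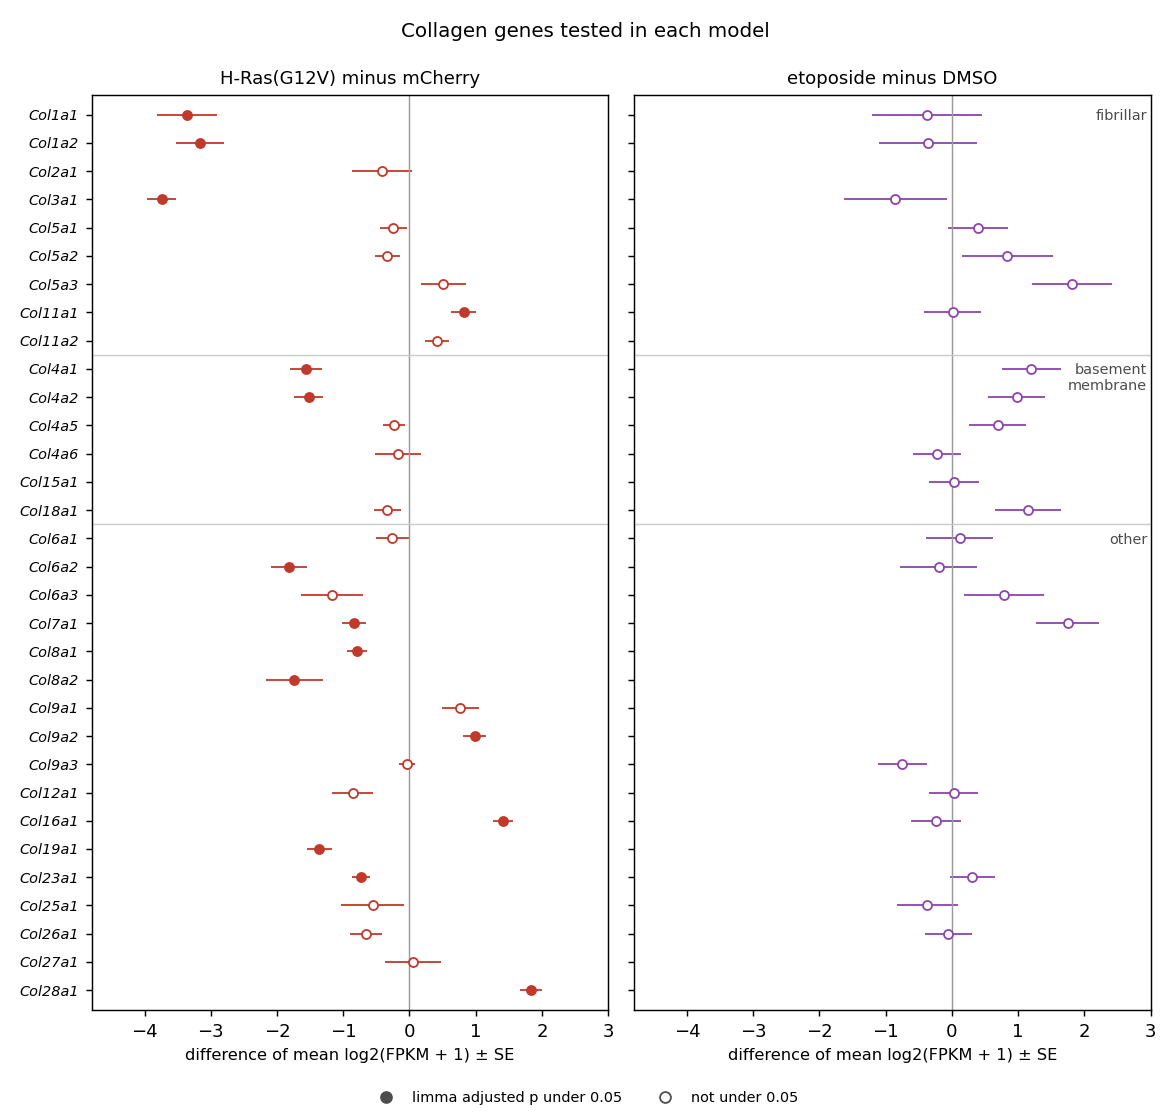
Difference of mean log2(FPKM + 1) with its SE for the 32 collagens tested in at least 1 model, H-Ras(G12V) minus mCherry on the left and etoposide minus DMSO on the right. Filled points have a limma adjusted p under 0.05: 15 with H-Ras(G12V), with Col3a1 lowest at -3.74 and Col28a1 highest at 1.83, and 0 with etoposide.

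The type I chains Col1a1 and Col1a2 form the main fibrillar heterotrimer of connective tissue. Col1a1 had 1.82, 3.70 and 1.22 FPKM in H-Ras(G12V) libraries, against 49.1, 37.8 and 15.3 FPKM in mCherry libraries. The groups did not overlap, and mCherry library 3 was the lowest control. The log2 difference was -3.36 ± 0.45 (SE; limma adjusted p = 0.00659). Col1a2 had 3.11, 5.94 and 2.69 FPKM in H-Ras(G12V) libraries, against 59.9, 46.6 and 25.0 FPKM in mCherry libraries, with the same order of libraries within each group as Col1a1. Its log2 difference was -3.16 ± 0.36 (adjusted p = 0.00399).

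Col3a1, the single chain of type III collagen, is found with type I in extensible tissues. It had 1.52, 1.93 and 1.37 FPKM in H-Ras(G12V) libraries, against 46.5, 31.5 and 26.1 FPKM in mCherry libraries. The H-Ras(G12V) libraries lay within a narrow range, far below the lowest control. The log2 difference was -3.74 ± 0.22 (adjusted p = 0.000837). Col1a1, Col1a2 and Col3a1 passed under each of the 15 alternatives run, with adjusted p of at most 0.0374, 0.0264 and 0.0149.

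Type V and type XI chains nucleate and limit the thickness of fibrils. Col5a1 averaged 5.35 ± 1.27 FPKM in H-Ras(G12V) libraries and 6.50 ± 1.43 FPKM in mCherry libraries (SD, n = 3 each), and Col5a2 averaged 8.02 ± 1.11 and 10.5 ± 2.46 FPKM in the same order. Neither passed (log2 difference -0.24 ± 0.21 and -0.33 ± 0.19, adjusted p = 0.442 and 0.253), but Col5a2 passed as lower without mCherry library 3 (log2 difference -0.49, adjusted p = 0.0288). Col5a3 averaged 6.81 ± 1.83 FPKM in H-Ras(G12V) libraries and 4.80 ± 2.89 FPKM in mCherry libraries (adjusted p = 0.323; 0.00669 and higher without mCherry library 3). In mCherry library 3 it read 8.13 FPKM, against 3.16 and 3.10 FPKM in mCherry libraries 1 and 2.

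Col11a1, a type XI chain, moved the other way from types I and III. It had 28.7, 19.6 and 20.1 FPKM in H-Ras(G12V) libraries, against 11.6, 10.8 and 14.9 FPKM in mCherry libraries, a log2 difference of 0.82 ± 0.19 (adjusted p = 0.0312). Every H-Ras(G12V) library lay above every mCherry library. The call did not survive most alternatives, passing in 6 of 15, and adjusted p ranged from 0.00367 to 0.239. Its partner Col11a2 averaged 1.70 ± 0.41 FPKM in H-Ras(G12V) libraries and 1.02 ± 0.28 FPKM in mCherry libraries (adjusted p = 0.154; 0.0380 and higher without mCherry library 3). Col2a1, the chain of cartilage collagen, had 2.73, 2.90 and 2.28 FPKM in H-Ras(G12V) libraries, against 6.19, 6.20 and 1.17 FPKM in mCherry libraries (adjusted p = 0.554; 0.000804 and lower without mCherry library 3), so that mCherry library 3 was below all others.

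**Figure D2:**
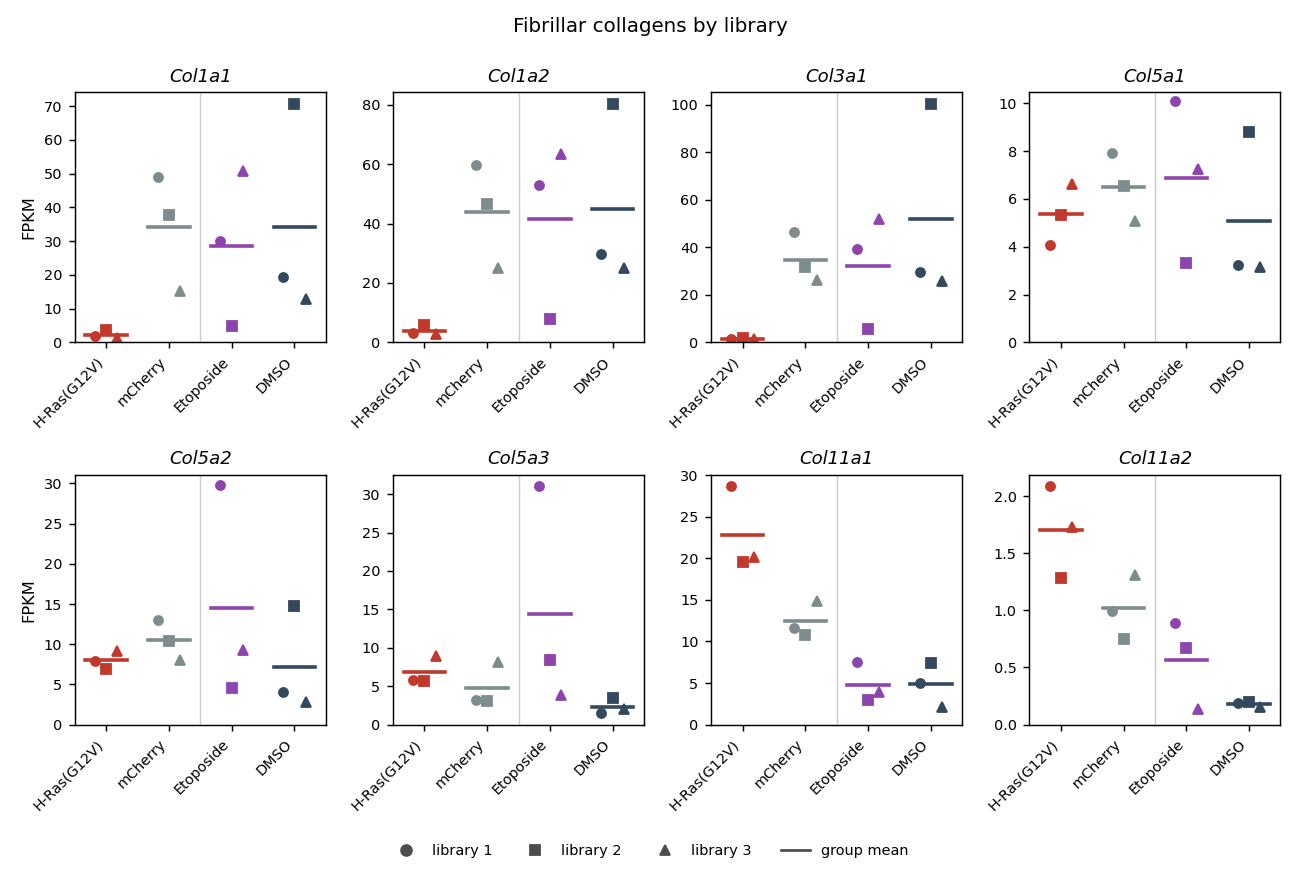
FPKM of 8 fibrillar collagens in each library (symbols) with the group mean (line), for H-Ras(G12V), mCherry, etoposide and DMSO; the vertical line divides the tables, which were normalised separately. Col3a1 lies between 1.37 and 1.93 FPKM in H-Ras(G12V) libraries and between 5.60 and 51.9 FPKM in etoposide libraries.

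Col4a1 and Col4a2 encode the chains of the most widespread type IV trimer. Col4a1 had 16.2, 24.0 and 12.1 FPKM in H-Ras(G12V) libraries, against 55.5, 55.6 and 44.8 FPKM in mCherry libraries. Its log2 difference was -1.57 ± 0.24 (adjusted p = 0.00933). Col4a2 had 11.1, 16.2 and 8.20 FPKM in H-Ras(G12V) libraries, against 34.8, 33.7 and 35.7 FPKM in mCherry libraries, a log2 difference of -1.52 ± 0.22 (adjusted p = 0.00815). For both chains H-Ras(G12V) library 2 was the highest of its group and still below every control. Both passed under each of the 15 alternatives run.

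The rest of the class did not pass. Col4a5, a chain of a second type IV trimer, averaged 10.99 ± 2.56 FPKM in H-Ras(G12V) libraries and 12.9 ± 0.44 FPKM in mCherry libraries (log2 difference -0.23 ± 0.17, adjusted p = 0.376). Col4a6 averaged 3.48 ± 1.58 and 3.95 ± 1.43 FPKM in the same order (adjusted p = 0.763). Col18a1, whose C-terminal fragment is endostatin, averaged 21.4 ± 5.47 and 26.8 ± 3.71 FPKM (adjusted p = 0.290). Col15a1, the relative of Col18a1, read between 0.01 and 0.94 FPKM in these 6 libraries and was not tested.

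**Figure D3:**
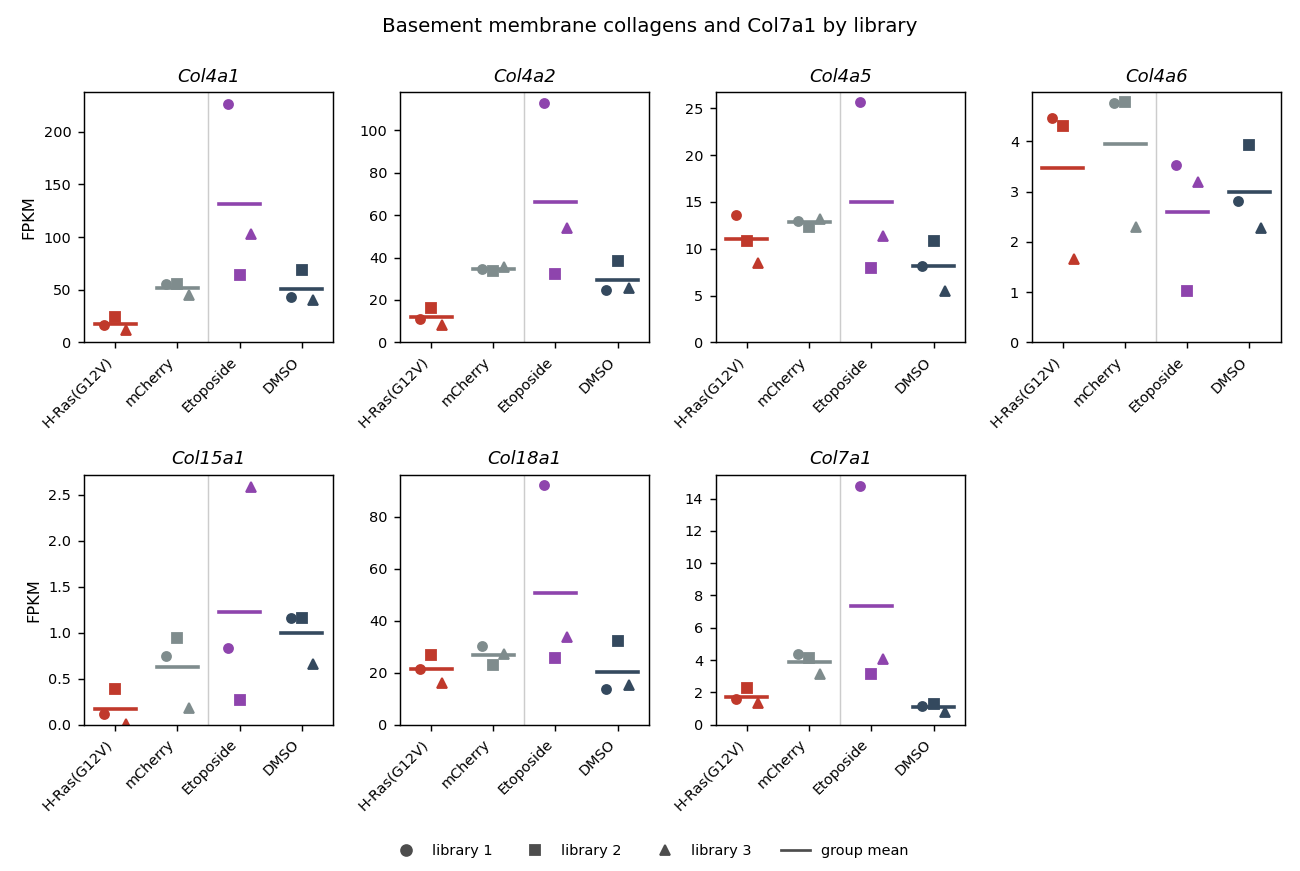
FPKM of 6 basement membrane collagens and of Col7a1 in each library (symbols) with the group mean (line); the vertical line divides the 2 tables. Col4a1 lies between 12.1 and 24.0 FPKM in H-Ras(G12V) libraries, below the mCherry libraries, and between 63.6 and 227 FPKM in etoposide libraries.

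The chains of type VI collagen, a beaded filament around cells, differed in their change. Col6a2 had 1.65, 2.40 and 1.37 FPKM in H-Ras(G12V) libraries, against 11.7, 10.0 and 5.68 FPKM in mCherry libraries, a log2 difference of -1.82 ± 0.27 (adjusted p = 0.00831). Col6a1 had 8.17, 11.6 and 7.27 FPKM in H-Ras(G12V) libraries, against 13.5, 12.01 and 7.65 FPKM in mCherry libraries (log2 difference -0.26 ± 0.24, adjusted p = 0.491). The ratio of Col6a1 to Col6a2 was 4.95, 4.83 and 5.31 in H-Ras(G12V) libraries, against 1.15, 1.20 and 1.35 in mCherry libraries, 1.85, 2.43 and 1.31 in etoposide libraries and 1.497, 1.34 and 1.32 in DMSO libraries. This ratio was singled out after its values were seen and is given without a test. Col6a3 had 1.04, 2.28 and 0.43 FPKM in H-Ras(G12V) libraries, against 5.96, 5.46 and 1.41 FPKM in mCherry libraries, and the groups overlapped (adjusted p = 0.129; 0.00414 without mCherry library 3). It passed in 2 of 14 alternatives. The other measured type VI chains Col6a4, Col6a5 and Col6a6 were not tested.

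The ratio of Col4a1 to Col4a2 lay between 1.26 and 2.01 in the 12 libraries, and its differences were not tested. It was 2.01, 1.97 and 1.91 in etoposide libraries, above the 1.73, 1.78 and 1.57 of DMSO libraries. The H-Ras(G12V) and mCherry libraries overlapped in this ratio. RefSeq places these genes on opposite strands of chromosome 8 of GRCm38.p6. Their first bases are 21 bases apart, and the genes overlap at these starts, with no gap between them.

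Of the network collagens Col8a1 and Col8a2, known from the basement membrane of the cornea and from vessel walls, both fell. Col8a2 had 0.06, 0.20 and 0.13 FPKM in H-Ras(G12V) libraries, against 5.22, 3.79 and 0.81 FPKM in mCherry libraries (log2 difference -1.74 ± 0.43, adjusted p = 0.0362). Col8a1 had 0.59, 0.40 and 0.69 FPKM in H-Ras(G12V) libraries, against 1.53, 1.62 and 1.92 FPKM in mCherry libraries (-0.79 ± 0.15, adjusted p = 0.0177). Both are low genes that reached the filter of 1 FPKM only through the mCherry libraries. They passed in 5 and 6 of the 13 alternatives run for Col8a2 and Col8a1. Col7a1, the anchoring fibril chain of skin, had 1.60, 2.26 and 1.36 FPKM in H-Ras(G12V) libraries, against 4.35, 4.12 and 3.15 FPKM in mCherry libraries (-0.84 ± 0.18, adjusted p = 0.0245), and passed in 8 of 14.

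The transmembrane chain Col23a1 had 1.04, 1.02 and 1.07 FPKM in H-Ras(G12V) libraries, against 2.72, 2.24 and 2.20 FPKM in mCherry libraries (log2 difference -0.73 ± 0.14, adjusted p = 0.0166), and passed in 8 of 14 alternatives. Col19a1, made by subsets of neurons in the mouse brain, had 0.44, 0.29 and 0.98 FPKM in H-Ras(G12V) libraries, against 2.95, 3.16 and 2.81 FPKM in mCherry libraries (-1.36 ± 0.19, adjusted p = 0.00709), and passed in all 14 alternatives run. Col25a1, a neuronal transmembrane collagen, read 10.6 FPKM in mCherry library 3 and between 1.93 and 2.68 FPKM in the other 5 libraries of this table (adjusted p = 0.446). Col26a1 averaged 6.96 ± 1.65 FPKM in H-Ras(G12V) libraries and 11.6 ± 3.15 FPKM in mCherry libraries, without overlap (adjusted p = 0.104; 0.00812 without mCherry library 3). Col12a1, a fibril-associated chain, averaged 1.84 ± 0.38 and 4.43 ± 2.06 FPKM in the same order (adjusted p = 0.104; 0.000546 without mCherry library 3). Col26a1 passed in 1 of 15 alternatives and Col12a1 in 1 of 14.

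Of the 4 collagens that rose, 3 lie outside the fibrillar and basement membrane classes. Col16a1, a fibril-associated chain, had 27.0, 28.0 and 21.5 FPKM in H-Ras(G12V) libraries, against 9.57, 7.86 and 9.33 FPKM in mCherry libraries. Its log2 difference of 1.41 ± 0.15 (adjusted p = 0.00284) passed under each of the 15 alternatives run, and no other collagen had a higher mean level in H-Ras(G12V) libraries. Col28a1, a beaded collagen known from peripheral nerve, had 5.47, 4.80 and 3.56 FPKM in H-Ras(G12V) libraries, against 0.58, 0.48 and 0.62 FPKM in mCherry libraries (1.83 ± 0.17, adjusted p = 0.00219), and passed in all 14 alternatives run. The ratio of means was 8.23.

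Type IX collagen, which coats cartilage fibrils, is built from Col9a1, Col9a2 and Col9a3. Col9a2 had 3.07, 2.94 and 4.11 FPKM in H-Ras(G12V) libraries, against 1.02, 1.00 and 1.63 FPKM in mCherry libraries (log2 difference 0.98 ± 0.18, adjusted p = 0.0155; passed in 9 of 14 alternatives). Col9a1 had 3.82, 1.94 and 3.77 FPKM in H-Ras(G12V) libraries, against 1.04, 1.05 and 2.26 FPKM in mCherry libraries, with overlap (adjusted p = 0.0961; 0.00991 and higher without mCherry library 3). It passed in 1 of 14 alternatives. Col9a3 was much higher than its partners, at 19.2, 18.8 and 22.6 FPKM in H-Ras(G12V) libraries, against 21.9, 19.5 and 20.6 FPKM in mCherry libraries (log2 difference -0.04 ± 0.12, adjusted p = 0.867). The ratio of Col9a3 to Col9a2 was 6.27, 6.38 and 5.49 in H-Ras(G12V) libraries, against 21.4, 19.5 and 12.6 in mCherry libraries. It was 23.0, 29.4 and 18.6 in etoposide libraries, above the 13.6, 13.0 and 14.4 of DMSO libraries. Col9a2 read under 1 FPKM in all etoposide and DMSO libraries, and this ratio was not tested.

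**Figure D4:**
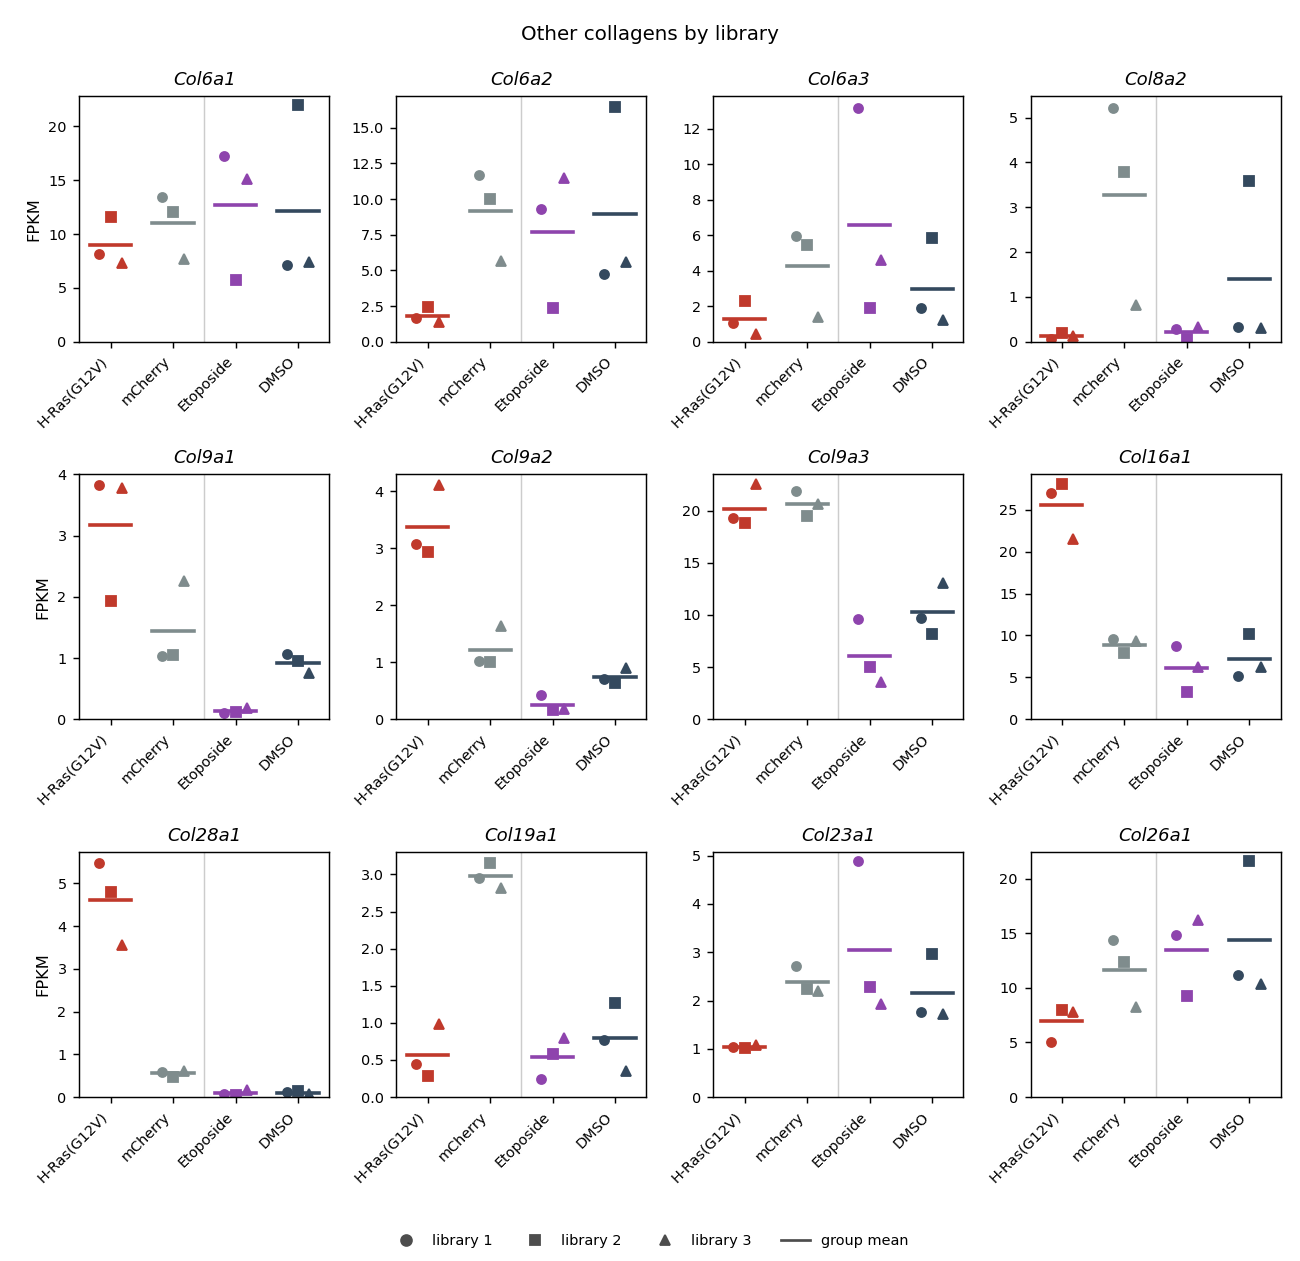
FPKM of 12 other collagens in each library (symbols) with the group mean (line); the vertical line divides the 2 tables. Col16a1 lies between 21.5 and 28.0 FPKM in H-Ras(G12V) libraries and at 10.1 FPKM or below in the 9 other libraries, and Col9a3 lies between 18.8 and 22.6 FPKM in H-Ras(G12V) libraries and between 19.5 and 21.9 FPKM in mCherry libraries.

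The make-up of the collagen transcripts differed. Summed FPKM over the fibrillar class was 57.8, 53.3 and 54.2 in H-Ras(G12V) libraries, against 198, 154 and 105 in mCherry libraries. Basement membrane collagens summed to 67.5, 82.9 and 46.8 FPKM in H-Ras(G12V) libraries, against 139, 131 and 124 FPKM in mCherry libraries. The other collagens summed to 88.1, 94.7 and 85.2 FPKM in H-Ras(G12V) libraries, against 108, 95.8 and 87.8 FPKM in mCherry libraries, so these groups overlapped. The other collagens made up 42.7% ± 2.68 of all collagen FPKM in H-Ras(G12V) libraries and 25.7% ± 1.80 in mCherry libraries (SD, n = 3 each). These sums are descriptions with no test.

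With etoposide no collagen passed, and the libraries of the group disagreed with each other. Of 23 tested collagens 0 passed in limma after adjustment, where 0.453% of all 12371 tested genes passed, all of them lower. At an unadjusted p under 0.05 there were 5, all higher, where 13.9% of all tested genes reached this level (7.42% higher). They were Col7a1, Col5a3, Col4a1, Col18a1 and Col4a2. Without etoposide library 3, the library closest to DMSO, Col5a3 and Col7a1 passed (adjusted p = 0.00503 and 0.0119), 2 of 22 tested where 31.8% of all tested genes passed.

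Type IV collagen was highest in etoposide library 1. Col4a1 had 227, 63.6 and 103 FPKM in etoposide libraries 1, 2 and 3, against 42.8, 68.7 and 40.2 FPKM in DMSO libraries, a log2 difference of 1.20 ± 0.45 (unadjusted p = 0.0249, adjusted p = 0.355). Etoposide library 2 lay below DMSO library 2, so the groups overlapped. Col4a2 had 113, 32.4 and 53.8 FPKM in etoposide libraries, against 24.7, 38.5 and 25.6 FPKM in DMSO libraries (log2 difference 0.98 ± 0.43, adjusted p = 0.357). Col18a1 had 92.2, 25.6 and 33.7 FPKM in etoposide libraries, against 13.7, 32.0 and 15.4 FPKM in DMSO libraries (1.15 ± 0.50, adjusted p = 0.357). The 3 genes ordered the etoposide libraries alike.

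The groups of Col7a1, the anchoring fibril chain, and Col5a3, a type V chain, did not overlap. They were the only 2 of the 23 tested, where the groups of 15.8% of all tested genes did not (7.64% higher and 8.17% lower). Col7a1 had 14.8, 3.15 and 4.06 FPKM in etoposide libraries, against 1.14, 1.26 and 0.81 FPKM in DMSO libraries (log2 difference 1.75 ± 0.47, adjusted p = 0.288). Col5a3 had 31.1, 8.41 and 3.88 FPKM in etoposide libraries, against 1.57, 3.41 and 2.01 FPKM in DMSO libraries (1.81 ± 0.61, adjusted p = 0.353).

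Type I and III collagen varied by more within the groups than between them. Col3a1 had 39.3, 5.60 and 51.9 FPKM in etoposide libraries, against 29.4, 100.2 and 25.9 FPKM in DMSO libraries (log2 difference -0.85 ± 0.78, adjusted p = 0.563). Col1a1 had 30.0, 4.79 and 50.9 FPKM in etoposide libraries, against 19.4, 70.6 and 12.9 FPKM in DMSO libraries (-0.37 ± 0.83, adjusted p = 0.826). Col1a2 had 53.1, 7.85 and 63.5 FPKM in etoposide libraries, against 29.9, 80.3 and 24.9 FPKM in DMSO libraries (adjusted p = 0.810). For all 3 genes etoposide library 2 was the lowest and DMSO library 2 the highest of the 6.

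Of the other collagens at 10 FPKM or more in a group mean, none passed. Col5a2 had 29.8, 4.51 and 9.25 FPKM in etoposide libraries, against 4.09, 14.8 and 2.79 FPKM in DMSO libraries (adjusted p = 0.524). Col4a5 had 25.7, 7.91 and 11.4 FPKM in etoposide libraries, against 8.12, 10.8 and 5.46 FPKM in DMSO libraries (adjusted p = 0.435). Col6a1 averaged 12.7 ± 6.09 FPKM in etoposide libraries and 12.2 ± 8.53 FPKM in DMSO libraries (adjusted p = 0.917). Col26a1 averaged 13.4 ± 3.71 and 14.4 ± 6.31 FPKM in the same order (adjusted p = 0.946). Col9a3 had 9.64, 4.99 and 3.54 FPKM in etoposide libraries, against 9.66, 8.16 and 13.1 FPKM in DMSO libraries (adjusted p = 0.370).

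The partners of Col9a3, Col9a1 and Col9a2 averaged under 1 FPKM in this table and were not tested, but their groups did not overlap. The same held for the untested Col4a4 and Col22a1, lower with etoposide, and Col27a1, higher with etoposide. The share of all untested genes without overlap was not computed. Col9a1 had 0.10, 0.12 and 0.19 FPKM in etoposide libraries, against 1.06, 0.95 and 0.75 FPKM in DMSO libraries. Without the filter on low values it was the only collagen that passed (log2 difference -0.75, adjusted p = 0.0339, where 0.264% of all genes passed). Col9a2 had 0.42, 0.17 and 0.19 FPKM in etoposide libraries, against 0.71, 0.63 and 0.91 FPKM in DMSO libraries.

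Whether the models differ was tested by subtracting the etoposide effect from that of H-Ras(G12V) in 1 fit of the 12 libraries. The contrast follows the titles of the etoposide and DMSO libraries, and the etoposide effect in it changes sign if those are exchanged. Of 32 tested collagens 3 were higher and 3 lower by this contrast, where 3.92% of all 12914 tested genes passed (3.56% higher and 0.356% lower). Col4a1 stood at -2.77 ± 0.56 on the log2 scale (limma adjusted p = 0.0148), Col4a2 at -2.50 ± 0.53 (0.0191) and Col7a1 at -2.58 ± 0.55 (0.0202). Col28a1 stood at 1.85 ± 0.24 (0.000798), Col9a2 at 1.46 ± 0.26 (0.00704) and Col9a1 at 1.52 ± 0.34 (0.0232). For Col3a1, Col1a2 and Col1a1 the contrast was -2.89, -2.80 and -2.98 and did not pass with all libraries (adjusted p = 0.130, 0.141 and 0.174). For each gene it passed in 1 of 20 alternatives, the fit without etoposide library 2 (0.00905, 0.0128 and 0.0438). That library had the lowest values of these genes in its group. Without DMSO library 3 none of Col4a1, Col4a2 and Col7a1 passed (0.0522, 0.0614 and 0.0657).

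Of the 13 collagens not tested for H-Ras(G12V), values reached at most 1.53 FPKM, in Col20a1. Of the 21 not tested for etoposide, values reached at most 3.59 FPKM, in Col8a2 of DMSO library 2. There were 12 collagens tested in neither model, namely Col4a3, Col4a4, Col6a4, Col6a5, Col6a6, Col10a1, Col13a1, Col14a1, Col17a1, Col20a1, Col22a1 and Col24a1. Of the 13, Col4a3, Col6a5, Col17a1, Col20a1 and Col24a1 were higher and Col13a1 lower in H-Ras(G12V) libraries without overlap. These values are low, and the share of all untested genes without overlap was not computed. Col20a1 had 1.44, 1.53 and 0.49 FPKM in H-Ras(G12V) libraries, against 0.28, 0.35 and 0.21 FPKM in mCherry libraries. Without the filter on low values Col17a1, which averaged 0.067 FPKM in H-Ras(G12V) libraries and 0.01 FPKM in mCherry libraries, passed (log2 difference 0.08, adjusted p = 0.0465). The tested members not named above are Col27a1, with 1.64, 1.38 and 1.37 FPKM in H-Ras(G12V) libraries against 0.66, 0.62 and 3.93 FPKM in mCherry libraries (adjusted p = 0.939; 0.0100 and higher without mCherry library 3), and, in the etoposide table, Col4a6, Col5a1, Col6a2, Col6a3, Col11a1, Col12a1, Col15a1, Col16a1, Col23a1 and Col25a1, with adjusted p between 0.503 and 0.988.

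Enzymes and partners of collagen did not follow 1 direction. Of 22 prolyl and lysyl hydroxylases and folding proteins 3 rose with H-Ras(G12V) and 0 fell, near the shares of all tested genes given above (10.3% and 6.67%). They were P4hb, the shared subunit of prolyl 4-hydroxylase, with 147, 149 and 163 FPKM in H-Ras(G12V) libraries against 113, 108 and 86.1 FPKM in mCherry libraries (limma adjusted p = 0.0323), the isomerase Ppib (0.0163) and the lysyl hydroxylase Plod1 (0.0261). Serpinh1, the collagen chaperone HSP47, had 106, 131 and 127 FPKM in H-Ras(G12V) libraries, against 97.1, 84.0 and 67.4 FPKM in mCherry libraries (adjusted p = 0.0605). P4ha1 and Plod2 did not pass either (0.365 and 0.0610). In the etoposide libraries 0 of 22 passed in limma, and 5 had an unadjusted p under 0.05, a level that 13.9% of all tested genes reached; the same share applies to the lists that follow.

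Of 10 tested cross-linking and processing enzymes 3 rose and 4 fell with H-Ras(G12V), where 10.3% of all tested genes rose and 6.67% fell. The lysyl oxidase Lox had 0.54, 0.52 and 0.66 FPKM in H-Ras(G12V) libraries, against 11.2, 8.14 and 6.70 FPKM in mCherry libraries (limma adjusted p = 0.00131). Adamts3, which trims the N-propeptide, had 1.82, 1.70 and 1.93 FPKM in H-Ras(G12V) libraries, against 10.8, 13.0 and 7.50 FPKM in mCherry libraries (0.00250). Adamts14, a protease that trims the same propeptide, had 3.44, 4.89 and 5.97 FPKM in H-Ras(G12V) libraries, against 0.41, 0.35 and 0.13 FPKM in mCherry libraries (0.00233), and the C-proteinase Tll1 had 5.73, 5.19 and 5.98 FPKM in H-Ras(G12V) libraries, against 0.76, 0.80 and 1.32 FPKM in mCherry libraries (0.00207). With etoposide 0 of 8 passed, and 0 had an unadjusted p under 0.05.

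Of 10 tested collagen receptors 3 rose and 2 fell with H-Ras(G12V), where 10.3% of all tested genes rose and 6.67% fell. The receptor kinase Ddr1 had 95.6, 116 and 82.5 FPKM in H-Ras(G12V) libraries, against 35.2, 34.8 and 49.9 FPKM in mCherry libraries (limma adjusted p = 0.00879), and the integrins Itgb1 and Itga2 rose as well (0.0111 and 0.0216). Itga11, the integrin of fibroblasts that binds type I collagen, had 0.13, 0.20 and 0.10 FPKM in H-Ras(G12V) libraries, against 2.13, 2.07 and 1.77 FPKM in mCherry libraries (0.00275). With etoposide 0 of 9 passed, and 5 had an unadjusted p under 0.05.

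Of 17 tested basement membrane partners 4 rose and 4 fell with H-Ras(G12V), where 10.3% of all tested genes rose and 6.67% fell. The laminin chain Lama1 had 0.83, 1.20 and 0.87 FPKM in H-Ras(G12V) libraries, against 5.72, 4.54 and 6.73 FPKM in mCherry libraries (limma adjusted p = 0.00244), and Nid1, which links laminin to type IV collagen, had 7.35, 7.64 and 9.31 FPKM in H-Ras(G12V) libraries, against 23.3, 18.8 and 19.1 FPKM in mCherry libraries (0.00409). Fbln2, a fibulin of basement membranes, had 12.5, 27.2 and 12.8 FPKM in H-Ras(G12V) libraries, against 5.83, 5.56 and 2.67 FPKM in mCherry libraries (0.0244). Sparc, a collagen-binding protein, rose (361, 429 and 253 FPKM in H-Ras(G12V) libraries, against 212, 204 and 188 FPKM in mCherry libraries, adjusted p = 0.0441). Smoc1, a relative of Sparc, was called in both models. It rose with H-Ras(G12V) (39.1, 46.8 and 36.3 FPKM, against 12.3, 10.7 and 15.9 FPKM in mCherry libraries, adjusted p = 0.00347). With etoposide it fell (3.37, 2.10 and 3.87 FPKM, against 14.2, 13.7 and 16.1 FPKM in DMSO libraries, adjusted p = 0.0245). This was the 1 call of 18 tested, where 0.453% of all tested genes fell.

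Of 11 tested fibril-associated proteoglycans and glycoproteins 1 rose and 7 fell with H-Ras(G12V), where 10.3% of all tested genes rose and 6.67% fell. Decorin (Dcn) had 0.94, 1.63 and 1.24 FPKM in H-Ras(G12V) libraries, against 17.3, 13.6 and 29.5 FPKM in mCherry libraries (limma adjusted p = 0.00205), and lumican (Lum) had 1.56, 1.63 and 1.46 FPKM in H-Ras(G12V) libraries, against 18.4, 15.6 and 16.03 FPKM in mCherry libraries (0.000487). Periostin (Postn) averaged 0.96 ± 0.09 FPKM in H-Ras(G12V) libraries and 25.9 ± 14.7 FPKM in mCherry libraries (0.00567), and biglycan (Bgn) averaged 11.7 ± 6.01 and 68.2 ± 8.70 FPKM in the same order (0.00828). The 1 member that rose, Thbs2, named after its values were seen, averaged 16.2 ± 4.08 FPKM in H-Ras(G12V) libraries and 3.49 ± 0.31 FPKM in mCherry libraries (0.00233). With etoposide 0 of 10 passed, and 3 had an unadjusted p under 0.05.

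Markers of other cells differed as well, in both directions. Of 10 tested fibroblast and mural markers, a list of 16 that includes Dcn and Lum, 0 rose and 8 fell with H-Ras(G12V). Of all tested genes 10.3% rose and 6.67% fell, shares that apply to the other markers too. The list summed to 40.2 to 43.4 FPKM in H-Ras(G12V) libraries, of which Rgs5 alone gave 26.4, 17.8 and 29.1 FPKM. In mCherry libraries it summed to 105 to 143 FPKM. Within each group the order of libraries differed from that of summed Col1a1, Col1a2 and Col3a1. This collagen sum was lowest in mCherry library 3 (66.4 FPKM), where the marker sum was highest. In H-Ras(G12V) library 2 the collagen sum was highest (11.6 FPKM) and the marker sum lowest. The mural markers Kcnj8 and Abcc9 read at most 0.22 FPKM in the 12 libraries. Endothelial markers were low, with sums of 2.19 to 2.57 FPKM over 10 genes in H-Ras(G12V) libraries and 2.11 to 5.37 FPKM in mCherry libraries, and Cldn5 was listed at 0 in 5 of these 6 libraries. The 1 tested, Kdr, had 0.36, 0.54 and 0.56 FPKM in H-Ras(G12V) libraries, against 3.32, 4.21 and 0.86 FPKM in mCherry libraries, without overlap (limma unadjusted p = 0.0128, adjusted p = 0.0629). Oligodendrocyte lineage markers rose in 4 of 7 tested and summed to 829 to 1021 FPKM in H-Ras(G12V) libraries, against 204 to 703 FPKM in mCherry libraries. Of 8 tested astrocyte markers 2 rose and 0 fell, of 10 neuronal markers 0 rose and 1 fell, and of 2 tested microglial markers 1 rose and 0 fell. The neuronal markers summed to 1412, 1434 and 1245 FPKM in H-Ras(G12V) libraries, against 2113, 2213 and 2148 FPKM in mCherry libraries, without overlap. The part of these cells in the collagen results was not tested.

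In the other table the fibroblast and mural markers summed to 306, 79.6 and 136 FPKM in etoposide libraries, against 102, 169 and 89.8 FPKM in DMSO libraries, and 0 of 14 tested passed (1 at an unadjusted p under 0.05). The sum of Col1a1, Col1a2 and Col3a1 was 122, 18.2 and 166 FPKM in etoposide libraries, against 78.7, 251 and 63.7 FPKM in DMSO libraries. Both sums were lowest in etoposide library 2, but the markers were highest in etoposide library 1 and the type I and III chains in DMSO library 2. Col4a1 and Col4a2 together gave 339, 96.0 and 156 FPKM in etoposide libraries, against 67.5, 107 and 65.8 FPKM in DMSO libraries, in the order of the marker sums within each group. The 10 endothelial markers summed to 5.43, 2.14 and 1.70 FPKM in etoposide libraries, against 1.28, 2.47 and 0.82 FPKM in DMSO libraries. The groups overlapped, and none of the markers was tested in this table. Single markers differed. Cdh5 was highest in etoposide library 1 (3.12 FPKM) and Pecam1 in etoposide library 2 (1.11 FPKM). Emcn was lower in etoposide libraries (0.03, 0 and 0.17 FPKM, against 0.22, 0.63 and 0.30 FPKM in DMSO libraries). Oligodendrocyte lineage markers summed to 64.8 to 209 FPKM in etoposide libraries, against 507 to 875 FPKM in DMSO libraries. They fell in 3 of 7 tested, where 0.453% of all tested genes fell. Microglial markers summed to 109, 80.7 and 9.63 FPKM in etoposide libraries, against 7.54, 27.4 and 5.18 FPKM in DMSO libraries. In limma 0 of 8 astrocyte, 0 of 10 neuronal and 0 of 3 microglial markers passed, with 6, 2 and 1 at an unadjusted p under 0.05. Their part was not tested.

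**Figure D5:**
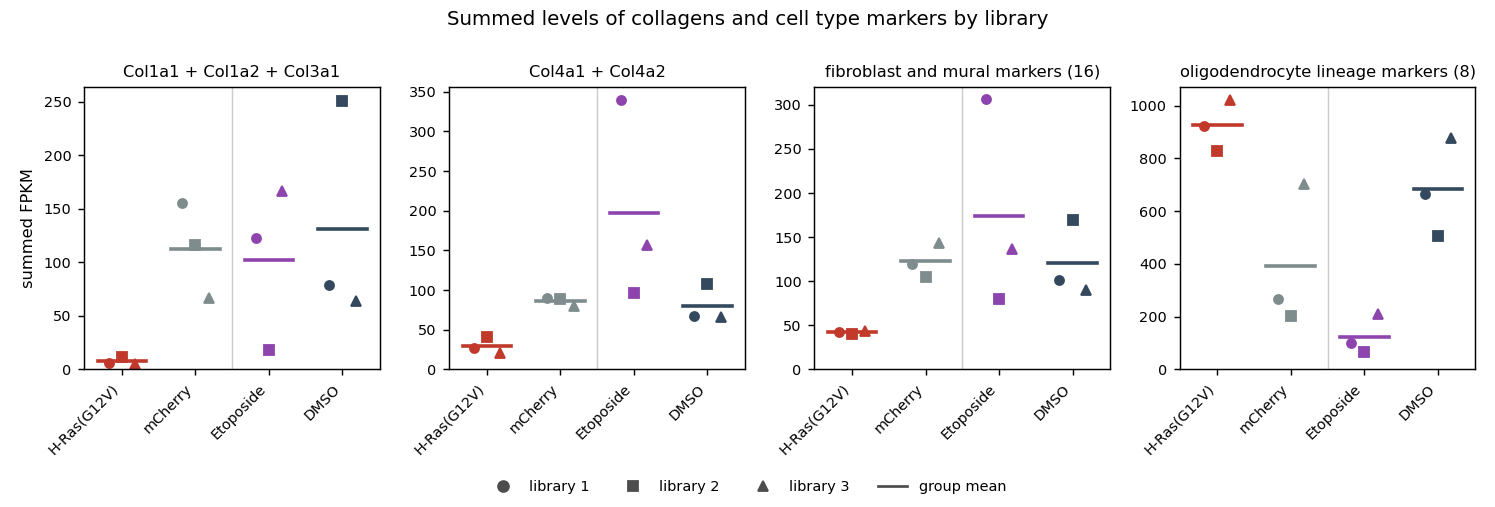
Summed FPKM of Col1a1, Col1a2 and Col3a1, of Col4a1 and Col4a2, of 16 fibroblast and mural markers and of 8 oligodendrocyte lineage markers in each library (symbols) with the group mean (line). In H-Ras(G12V) libraries the first 3 sums lie below every mCherry library and the last lies above; in etoposide libraries the first 3 overlap with DMSO libraries.

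A sequence feature that many collagens share is a match to the seed of the miR-29 family, microRNAs known to target collagen mRNAs. The mature sequences (RefSeq, GRCm38.p6) are shown with the seed, bases 2 to 8, in capitals, since all 3 have the same one.
mmu-miR-29a-3p: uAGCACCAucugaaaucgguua
mmu-miR-29b-3p: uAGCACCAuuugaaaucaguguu
mmu-miR-29c-3p: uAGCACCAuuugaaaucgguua
The complement of the seed, TGGTGCT, was searched on the sense strand of the longest annotated 3' UTR of each gene (GENCODE M21). It was present in 25 of 44 collagens (56.8%), against 16.4% of the tested genes with a 3' UTR, at median 3' UTR lengths of 1032 and 1262 bases. By class it was in 7 of 9 fibrillar, 7 of 8 basement membrane and 11 of 27 other collagens. Among collagens that fell with H-Ras(G12V) 7 of 11 held it, among those that rose 2 of 4, and among those tested and not called 11 of 16. The sites of the chains that fell most clearly are shown with the match in capitals.
Col1a1 (chromosome 11): aaggaatttcTGGTGCTatag
Col3a1 (chromosome 1): aatgtctcaaTGGTGCTataa
Col4a1 (chromosome 8): cgtcacaacaTGGTGCTactc
Col4a2, first site (chromosome 8): aaggccacgtTGGTGCTtatc
Col4a2, second site (chromosome 8): acacccagctTGGTGCTtact
Col1a2 held no such match in this UTR and fell with Col1a1. The libraries do not measure mature microRNAs, and a match is a description only.

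Promoters were read from RefSeq windows (GRCm38.p6), which matched 35 of the 44 collagens with 38 windows. In the 250 bases before the gene start, 4 motifs were searched on both strands. CCAAT was in 34.2% of collagen windows and 33.8% of all 32851 windows, TATAAA in 13.2% and 12.4%, GGGCGG in 57.9% and 32.7%, and TGANTCA, the AP-1 motif, in 2.63% and 6.75%. A fibrillar gene that fell and a fibrillar gene that rose with H-Ras(G12V) are shown to compare their letters, with matches to any of the 4 motifs in capitals.
Col3a1, chr1:45311288-45311537, plus strand: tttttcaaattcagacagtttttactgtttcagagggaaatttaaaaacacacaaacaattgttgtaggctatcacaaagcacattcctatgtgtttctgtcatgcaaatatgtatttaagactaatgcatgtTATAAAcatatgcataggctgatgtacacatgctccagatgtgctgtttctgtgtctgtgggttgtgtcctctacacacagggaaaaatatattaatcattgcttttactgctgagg
Col11a1, chr3:114030290-114030539, plus strand: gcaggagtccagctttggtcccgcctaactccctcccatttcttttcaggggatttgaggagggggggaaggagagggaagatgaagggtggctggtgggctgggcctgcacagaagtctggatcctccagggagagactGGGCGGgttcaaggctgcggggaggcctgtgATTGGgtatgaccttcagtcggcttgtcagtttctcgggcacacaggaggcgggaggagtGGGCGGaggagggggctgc
The Col3a1 window held TATAAA and none of the other 3 motifs, and the Col11a1 window held GGGCGG at 2 positions and CCAAT on the minus strand. This pair does not stand for the collagens that fell or rose. GGGCGG was in 8 of 11 windows of those that fell and 3 of 4 windows of those that rose, and TATAAA in 1 of 11 and 0 of 4. The windows of those that fell are not 1 per gene. Col1a1 has none, and Col6a2 has more than 1, each with GGGCGG.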

How the data were processed

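The authors deposited FPKM values with 2 decimals, per the file headers, as 1 table per model with 6 libraries each. HISAT, Bowtie2, RSEM and mm9 are named in the submitters' processing notes, without roles or versions. Depth and annotation are not given in the sources used here, so depth is unknown and no counting interval is printed. The tables were treated as normalised separately.

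Values were taken to log2 after a pseudocount of 1 FPKM was added. Genes averaging 1 FPKM or more in a table entered limma 3.58.1 (R 4.3.3; lmFit, then eBayes with a mean trend). P-values are two-sided and adjusted by Benjamini-Hochberg over all tested genes, and the threshold is 0.05. The fits were run on simulated data with the same independent noise for every gene and no library that stands apart. Such data do not show how the fits perform with the spread seen here. Differences on this scale understate changes of low genes. A gene can reach the filter through 1 group alone. Of the collagens called for H-Ras(G12V), Col8a1, Col8a2 and Col19a1 did so through mCherry libraries and Col28a1 through H-Ras(G12V) libraries. The contrast between models used genes of both tables that reached this level in either. Columns were matched to samples by group and number. The members, lists and tests were chosen with earlier results of these data known. Any collagen could be named. Of each partner list, up to 4 called genes with the largest log2 difference were named, plus Serpinh1, P4ha1, Plod2, Lox, Sparc and Dcn. The GENCODE M21 and RefSeq annotations belong to GRCm38, not mm9, and served only for sequences. Alternatives were other pseudocounts, filters and scalings, a replicate block, averaged mCherry libraries, a joint fit, and each library left out.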

Additional observations from a re-analysis of the deposited data

Results flagged for a closer look

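For 6 collagens the H-Ras(G12V) effect differed from the etoposide effect by the contrast of the 2 (limma, 12 libraries, log2 scale). The contrast was -2.77 for Col4a1, -2.50 for Col4a2 and -2.58 for Col7a1, whose levels were below mCherry with H-Ras(G12V) and, in the group mean, above DMSO with etoposide. It was 1.52 for Col9a1, 1.46 for Col9a2 and 1.85 for Col28a1. In the group means, Col9a1 and Col9a2 were above mCherry with H-Ras(G12V) and below DMSO with etoposide, although the H-Ras(G12V) and mCherry libraries of Col9a1 overlapped. Col28a1 was near 0 in all etoposide and DMSO libraries, at 0.05 to 0.16 FPKM. Of 19 alternatives each, Col28a1 and Col9a2 passed in 19, Col7a1 in 11 and Col9a1 in 10. Of 20 alternatives each, Col4a1 passed in 19 and Col4a2 in 14. All 6 contrasts follow the titles of the etoposide and DMSO libraries, and if those titles are exchanged the etoposide effect in them changes sign. The spread in this fit is shared by the 4 groups, and mCherry library 3 and etoposide library 3 stand apart in it.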

How the results depend on the processing

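Effects were followed over the alternatives only where the unadjusted limma p was under 0.05, a choice that favours a stable direction. None of these changed direction. Among those not followed, the H-Ras(G12V) effect of Col25a1 (log2 scale) was -0.56 with all libraries and 0.05 without mCherry library 3. The etoposide effect of Col11a1 was 0.02 with all libraries and -0.37 without DMSO library 3. For H-Ras(G12V) against mCherry, the 15 called collagens (4 higher, 11 lower) became 8 (2 higher, 6 lower) at a mean of at least 5 FPKM, where fewer collagens are tested and 16% of all tested genes passed. With mCherry libraries 1 and 2 averaged they became 9 (2 higher, 7 lower), and in 1 fit of the 12 libraries 9 (3 higher, 6 lower), while the share of all tested genes that passed was 5.02% and 4.65%, against 17% in the fit reported. Leaving out 1 library in turn gave 9 to 23 calls, 2 to 8 higher and 7 to 15 lower, where 3.9% to 44.9% of all tested genes passed. For etoposide against DMSO, 0 called became 1 (1 lower) without the filter, where 0.264% of all genes passed. Leaving out 1 library in turn gave 0 to 2 in this comparison, with 0 to 2 higher, where 0.0322% to 31.8% of all tested genes passed. For the contrast between models, 6 called (3 higher, 3 lower) became 2 (0 higher, 2 lower) at a mean of at least 5 FPKM. The share of all tested genes that passed was 2.97% there, against 3.92% in the fit reported. Leaving out 1 library in turn gave 3 to 9 calls for the contrast, with 2 to 4 higher and 0 to 6 lower. In those fits 2.34% to 22.8% of all tested genes passed. The cause of these moves was not tested. Pseudocounts of 0.1 and 5 FPKM and both scalings kept each of these counts within 1.5 times. The ratios of class sums moved by less than the spread between replicates, but leaving out 1 library in turn took the fibrillar ratio of etoposide to DMSO across 1 (0.758 to 1.72) and that of basement membrane collagens to between 1.499 and 2.97.

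With a replicate block, 16 collagens were called for H-Ras(G12V) (4 higher, 12 lower), 0 for etoposide and 5 for the contrast (3 higher, 2 lower), where 13.2%, 0.097% and 2.87% of all tested genes passed. Same-numbered libraries did not deviate together (correlations of -0.0387, 0.0343 and 0.119 in the H-Ras(G12V) table, and -0.265, -0.171 and -0.151 in the etoposide table), so the numbers were not taken as pairs.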
